A study of Mus musculus with 12 samples.

Results

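Genes of the interferon response and of MHC class I antigen presentation were followed in 12 RNA sequencing libraries of cultured mouse islets. The set holds 42 genes chosen by name, with earlier results of these data known, of 22141 genes summed from the deposited transcripts. All 42 were found, and all passed the low-count filter that left 15794 genes for testing. The islets came from wild-type male mice of 10 to 12 weeks and were cultured in lots of about 120. The 4 groups of 3 libraries were palmitate with C3a, palmitate without C3a, vehicle with C3a, and vehicle without C3a. Palmitate is a saturated fatty acid used to stress beta cells, and C3a is a fragment of complement component C3 that signals through its own receptor. Doses and times of treatment are not among the labels used here. Whether a group's 3 libraries are separate mice or cultures is not in the labels. The deposited column names of replicates 2 and 3 carry a date-like suffix, the same across the 4 groups and different between the numbers. Those of replicate 1 carry none, and the column names do not say what the suffix marks. The p-values therefore reflect only how these libraries differ, which may be technical variation.

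Type I interferons bind a receptor on the cell surface, and interferon gamma binds another. The kinases of these receptors activate STAT proteins, which enter the nucleus alone or with Irf9 and switch on interferon-stimulated genes. Some of these genes code for sensors of viral RNA, some for antiviral effectors, and others for the machinery that cuts peptides and loads them on MHC class I. In islets class I marks beta cells for recognition by cytotoxic T cells, and interferon signatures there are known from autoimmune diabetes.

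STAT and IRF proteins recognise short DNA elements, and 4 promoter stretches of members are printed to show them beside the values. They are RefSeq sequences of build GRCm38.p6, the 180 bases that end just before the transcription start, on the strand of the gene and 5′ to 3′. Ifit3 (chr19:34583349-34583528, plus strand) and B2m (chr2:122147507-122147686, plus strand) carry the interferon-stimulated response element, searched as GAAANNGAAA. H2-K1 (chr17:34000348-34000527, minus strand) carries the shorter IRF element GAANNGAAA, and Irf1 (chr11:53769834-53770013, plus strand) carries the gamma-activated element TTCNNNGAA. Capitals mark the element, on either strand. In Ifit3 the 2 elements start 156 and 122 bases before the start site, in B2m 139, and in H2-K1 and in Irf1 90.
Ifit3: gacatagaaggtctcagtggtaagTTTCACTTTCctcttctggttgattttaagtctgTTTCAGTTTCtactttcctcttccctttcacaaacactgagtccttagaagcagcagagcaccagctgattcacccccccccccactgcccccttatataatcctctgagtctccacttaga
B2m: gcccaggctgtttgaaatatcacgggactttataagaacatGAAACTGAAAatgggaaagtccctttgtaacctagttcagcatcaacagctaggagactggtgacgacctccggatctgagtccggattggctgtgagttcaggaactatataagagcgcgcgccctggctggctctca
H2-K1: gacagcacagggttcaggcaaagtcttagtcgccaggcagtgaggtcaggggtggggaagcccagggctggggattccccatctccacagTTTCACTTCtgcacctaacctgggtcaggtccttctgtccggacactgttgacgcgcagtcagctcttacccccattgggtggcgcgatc
Irf1: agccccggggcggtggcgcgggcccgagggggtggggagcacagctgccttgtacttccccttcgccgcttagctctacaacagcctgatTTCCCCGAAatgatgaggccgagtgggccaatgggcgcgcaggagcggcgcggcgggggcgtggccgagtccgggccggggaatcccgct
The searched windows ran from 250 bases before to 50 after each start site, on both strands, for 27025 genes. Of the members, 34 had a window, and Dhx58, Nlrc5, Usp18, Ifi27, Tap2, Parp14, Parp9 and Iigp1 had none. GAAANNGAAA stood in 17 of the 34 members (50%) and in 3.99% of all genes. GAANNGAAA stood in 13 members (38.2%) against 8.68% of all genes, and TTCNNNGAA in 10 members (29.4%) against 9.55%. The first 2 patterns can overlap only in part, since their spacing differs by 1 base. Among the members that were lower with palmitate in the comparison described later, 8 of 16 with a window held GAAANNGAAA, and among the other members 9 of 18 did. A match describes these letters and not a bound site.

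Levels were compared between genes per transcript length, as TPM, a measure of transcripts scaled to length and library, computed here over all 12 libraries. The class I chains led: H2-K1, a classical class I heavy chain, averaged 470 TPM and ranked 134 of the 22141 genes. H2-D1, the other classical heavy chain, averaged 288 TPM, and B2m, the light chain that all class I molecules share, 178 TPM. Tapbp, the tapasin that bridges class I to the peptide transporter, averaged 111 TPM. Another 14 members lay between 10 and 100 TPM, 20 between 1 and 10 TPM, and 4 were under 1 TPM: Gbp3 (0.818), Ifit2 (0.544), Nlrc5 (0.457) and Iigp1 (0.130). The chemokine gene Cxcl10 averaged 2.42 TPM and the ubiquitin-like modifier Isg15 1.11 TPM. Ifnb1, the interferon beta gene, was at 0.0395 CPM in 1 library and at 0 in the other 11.

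The libraries held 22216420 to 26110989 counts in sequencing batch 1, which had replicate 1 of every group, and 35876350 to 50264695 in batch 2. Summed beta cell markers (Ins1, Ins2 and others, 8 genes) ran from 133800 to 191500 CPM (counts scaled to library size), so the libraries carried the defining RNA of islets, and 1 of the 8 was higher and 4 were lower in the average palmitate comparison defined further on. Other cells were present too, and in bulk RNA fewer cells of a type and less RNA per cell cannot be told apart. The 13 endothelial markers summed to 169 to 295 CPM (median 251) in the 6 palmitate libraries, against 277 to 399 CPM (median 337) in the 6 vehicle libraries, with 11 of the 13 lower and 0 higher in that comparison. The 15 macrophage and myeloid markers summed to 265 to 506 CPM (median 292) with palmitate and to 327 to 419 CPM (median 355) with vehicle, with 2 higher and 3 lower. The 10 fibroblast and pericyte markers summed to 205 to 1509 CPM (median 246) with palmitate, the highest in palmitate with C3a replicate 3, and to 365 to 729 CPM (median 478) with vehicle, with 0 higher and 4 lower. Lymphocyte markers summed to 2.05 to 4.28 CPM with palmitate and to 2.90 to 8.89 CPM with vehicle, and 9 of 11 were under 1 CPM in every library. The 4 plasmacytoid dendritic cell markers, which include the member Bst2, summed to 56.0 to 65.3 CPM with palmitate and to 67.0 to 75.6 CPM with vehicle, with 2 of 3 tested lower. However, 1 of the 4 was under 1 CPM in every library, and Bst2 had only 5.05 to 9.68 CPM. Most of the sum came from the other markers, and it does not show that these cells were present. Of the alpha cell markers 2 of 5 were lower, and no delta, acinar or duct marker was called. The part of these cells in the results that follow was not tested.

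Palmitate lowered the RNA of about as many members as it left uncalled, with average log2 fold changes from -1.36 (Gbp2) to -0.11 (Adar). Averaged over both C3a conditions (6 libraries with palmitate against 6 with vehicle), edgeR's quasi-likelihood test called 20 of 42 members lower and 1 higher at a Benjamini-Hochberg adjusted p under 0.05. Of all genes tested 39.7% were called in this comparison, 20.3% higher and 19.4% lower. The members' median log2 fold change was -0.24, beside -0.00 for all genes tested, and 33 of the 42 were below 0. The called members were spread over the roles: all 3 RNA sensors and all 5 regulators fell, as did 4 of 6 GTPases, 4 of 11 antiviral effectors, 2 of 7 class I genes, 1 of 5 transcription factors and 1 of 5 other genes. The class I group had a median of 0.08 and held the 1 member that rose, H2-D1.

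The average rests on both single comparisons, whose libraries are all different but which share 1 fit. With C3a, 10 members were lower and 1 higher, beside 13.1% of all genes lower, 13.8% higher and 26.9% either way. Without C3a, 11 members were lower and 0 higher, beside 12% of all genes lower, 13.4% higher and 25.4% either way. Both medians were -0.19, beside 0.01 for all genes with C3a and -0.02 without. Dtx3l, Ifih1, Ifit3, Irf1, Irgm1, Oasl2, Parp14 and Tapbp were called lower in both, which is 80.0% of the 10 lower with C3a and 72.7% of the 11 lower without. The same overlap of calls was not computed for all genes, so it cannot be called particular to the members. In both comparisons 31 members were below 0, as were 40.7% of all genes tested. For 8 members (Dtx3l, Gbp2, Ifit3, Irf1, Irgm1, Oasl2, Parp14 and Tapbp) all 6 palmitate libraries lay below all 6 vehicle libraries, while 8.33% of all genes tested did so.

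**Figure D1:**
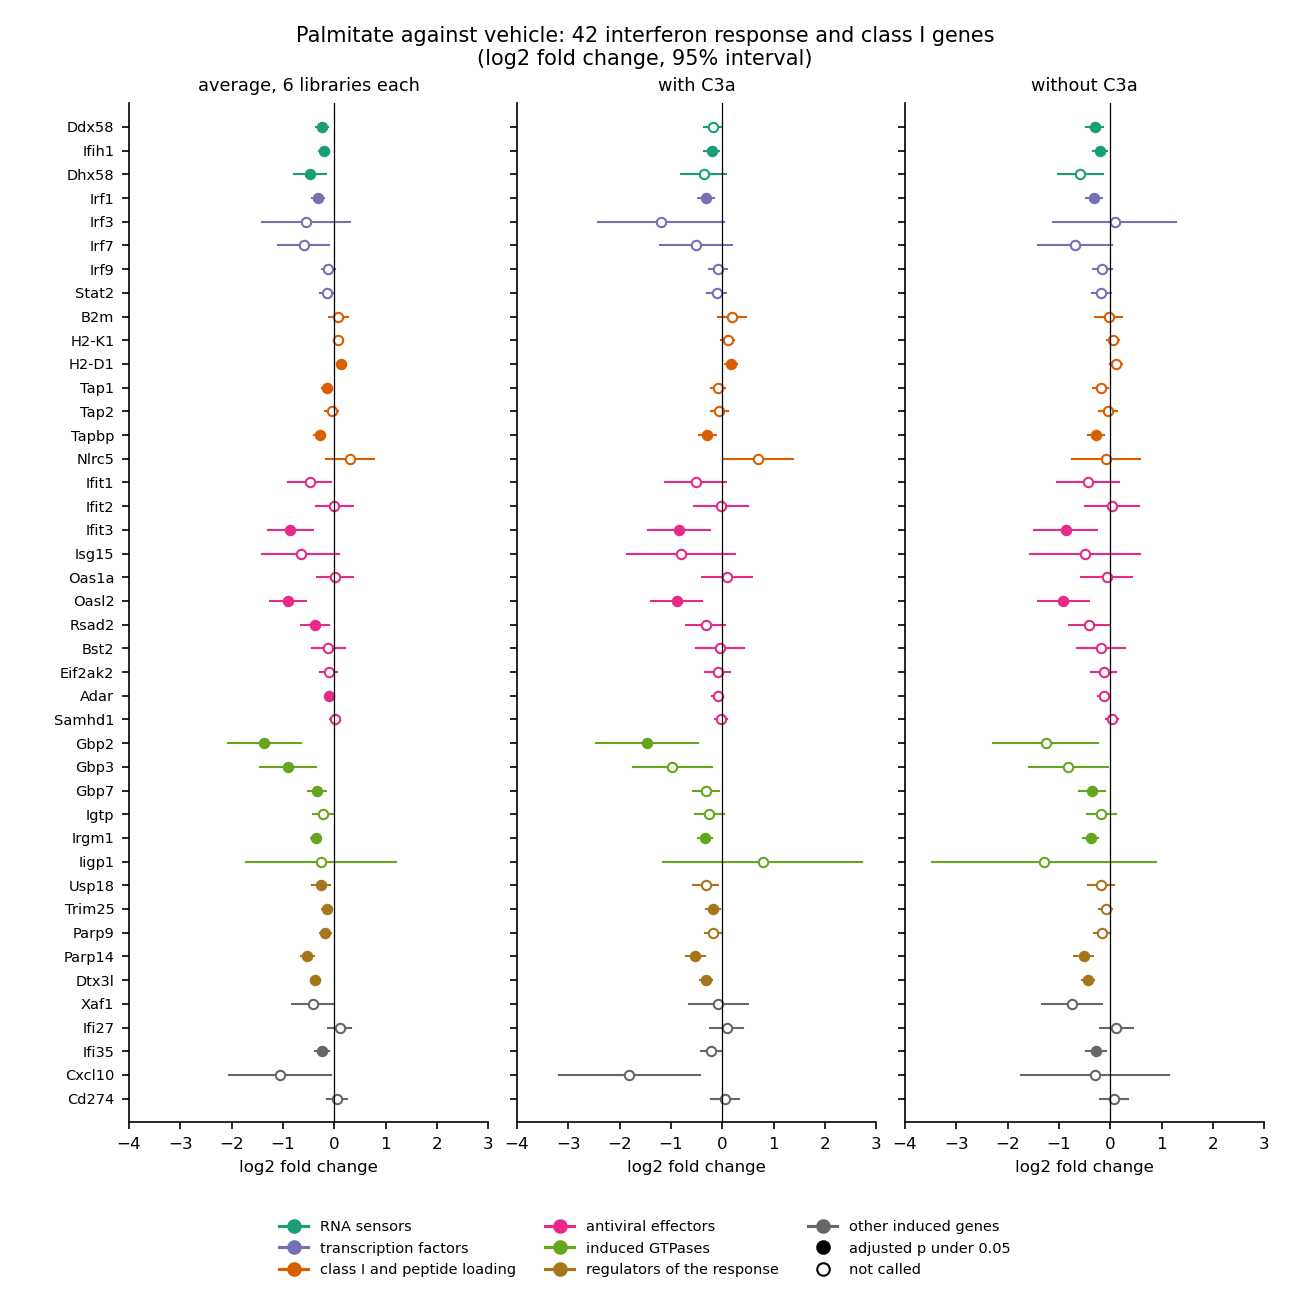
Log2 fold changes of the 42 members with palmitate against vehicle (points) with 95% intervals (lines), as the average of both C3a conditions (left), with C3a (middle) and without C3a (right). Colours are the role groups, and filled points have an adjusted p under 0.05. Most points lie left of 0 in each panel, the longest intervals belong to low genes such as Iigp1, and the class I chains sit near 0.

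All 5 regulators fell on average, and Dtx3l and Parp14 had the smallest adjusted p of the members. Parp14 is an ADP-ribosyltransferase, Dtx3l a ubiquitin ligase, and Parp9 its partner. The 3 genes lie on chromosome 16 (GENCODE M21, GRCm38), Parp14 at 35832874 to 35871544 and Dtx3l at 35926511 to 35939151 on the minus strand, Parp9 at 35938470 to 35972605 on the plus strand. Parp14 had 23.4, 23.8 and 22.97 CPM with palmitate and C3a, 24.1, 26.02 and 22.1 CPM with palmitate alone, 30.9, 31.6 and 38.7 CPM with vehicle and C3a, and 32.2, 35.97 and 35.2 CPM with vehicle alone. No palmitate library came above 26.0 CPM and no vehicle library below 30.9 CPM. The average change of Parp14 was -0.52 ± 0.06 (log2 fold change ± SE; adjusted p = 3.45e-05, edgeR), with -0.53 ± 0.08 with C3a and -0.52 ± 0.08 without.

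Dtx3l had 21.4, 26.0 and 24.5 CPM with palmitate and C3a, 21.97, 25.1 and 23.7 CPM with palmitate alone, 27.2, 29.9 and 32.5 CPM with vehicle and C3a, and 29.9, 33.3 and 32.1 CPM with vehicle alone. Again the palmitate and vehicle libraries did not overlap. Dtx3l fell by 0.37 ± 0.04 on the log2 scale on average (adjusted p = 1.54e-05, edgeR), by 0.32 with C3a and by 0.43 without. Parp9 had 17.7, 24.2 and 20.8 CPM with palmitate and C3a, 17.9, 22.1 and 22.1 CPM with palmitate alone, 19.8, 24.6 and 26.5 CPM with vehicle and C3a, and 19.8, 26.7 and 23.1 CPM with vehicle alone. Replicate 1 was the lowest of each group, and the palmitate and vehicle ranges overlapped. Parp9 was called in the average only (-0.17 ± 0.05; adjusted p = 0.0172, edgeR). Parp9 lost its call in the average when palmitate with C3a replicate 3 was left out (log2 -0.14; adjusted p = 0.0508). Parp9 and Dtx3l overlap on opposite strands, and reads of their shared stretch cannot be assigned with certainty where the use of strand in the quantification is not known.

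Trim25 and Usp18 completed the regulators. Trim25 is the ubiquitin ligase that activates the RIG-I sensor, and Usp18 removes Isg15 from proteins and dampens the type I receptor. Trim25 had 87.4, 89.1 and 78.3 CPM with palmitate and C3a, 91.96, 91.7 and 78.7 CPM with palmitate alone, 100.3, 94.97 and 93.7 CPM with vehicle and C3a, and 94.1, 91.7 and 93.2 CPM with vehicle alone. Both palmitate replicate 3 libraries were lowest, and only vehicle replicate 2 lay below the highest palmitate values. Trim25 fell by 0.14 ± 0.04 on the log2 scale on average (adjusted p = 0.0258) and was called with C3a (-0.18 ± 0.06; adjusted p = 0.0467), with -0.09 ± 0.06 without C3a (adjusted p = 0.319; edgeR). Trim25 lost its call in the average when any 1 of 7 libraries was left out (log2 -0.14 to -0.10; adjusted p 0.0502 to 0.0653), with the highest p without vehicle replicate 3. Trim25 lost its call with C3a when any 1 of 9 libraries was left out (log2 -0.19 to -0.13; adjusted p 0.0572 to 0.148), with the highest p without palmitate with C3a replicate 3. Usp18 had 14.8, 11.5 and 10.7 CPM with palmitate and C3a, 14.9, 10.8 and 12.5 CPM with palmitate alone, 17.1, 12.1 and 16.6 CPM with vehicle and C3a, and 15.4, 13.3 and 14.3 CPM with vehicle alone. Replicate 1 was high in all 4 groups, and the groups overlapped. Usp18 changed by -0.25 ± 0.08 on average (adjusted p = 0.0246, edgeR). Usp18 lost its call in the average when palmitate with C3a replicate 3, palmitate replicate 2, vehicle with C3a replicate 3 or vehicle replicate 3 was left out (log2 -0.22 to -0.18; adjusted p 0.0554 to 0.0741). With C3a the value was -0.32 ± 0.11 (adjusted p = 0.0522), and with the replicate number as a block in place of the sequencing batch it was called there (adjusted p = 0.0299). With no batch term and with batch 2 only Usp18 was not called in the average.

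The 3 sensors of viral RNA fell on average. Ddx58 codes for RIG-I, Ifih1 for MDA5, and Dhx58 for LGP2, the helicase that modulates both. Ddx58 had 23.4, 26.5 and 26.98 CPM with palmitate and C3a, 21.1, 25.2 and 23.7 CPM with palmitate alone, 26.8, 26.3 and 33.7 CPM with vehicle and C3a, and 26.8, 30.9 and 28.8 CPM with vehicle alone. The palmitate with C3a libraries reached into the range of the vehicle with C3a libraries, while the 3 palmitate libraries lay below all 3 vehicle libraries. Ddx58 changed by -0.24 ± 0.06 on average (adjusted p = 0.00498), by -0.17 ± 0.08 with C3a (adjusted p = 0.134) and by -0.31 ± 0.08 without (adjusted p = 0.0149; edgeR). Ddx58 lost its call without C3a when palmitate replicate 1, palmitate replicate 3, vehicle replicate 1 or vehicle replicate 2 was left out (log2 -0.30 to -0.28; adjusted p 0.0543 to 0.0650). Ifih1 had 25.6, 21.2 and 22.4 CPM with palmitate and C3a, 26.5, 21.4 and 22.2 CPM with palmitate alone, 28.2, 24.3 and 26.9 CPM with vehicle and C3a, and 31.8, 23.6 and 25.4 CPM with vehicle alone. Replicate 1, the batch 1 library, was the highest of each group, and within replicates 2 and 3 every palmitate library lay below every vehicle library. Ifih1 fell by 0.20 on the log2 scale in the average (adjusted p = 0.00430) and in both single comparisons (adjusted p = 0.0376 with C3a and adjusted p = 0.0429 without; edgeR). Ifih1 lost its call with C3a when any 1 of 7 libraries was left out (log2 -0.23 to -0.14; adjusted p 0.0503 to 0.163), with the highest p without vehicle with C3a replicate 3. Ifih1 lost its call without C3a when any 1 of 9 libraries was left out (log2 -0.21 to -0.15; adjusted p 0.0532 to 0.194), with the highest p without vehicle replicate 1. Without C3a the call was kept under only 4 of 19 alternatives, and it also ended with the DESeq2 Wald test, DESeq2 size factors and no filter. With no batch term Ifih1 was called neither in the average nor in a single comparison. In batch 2 only it was called in neither single comparison.

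Dhx58 had 2.69, 3.25 and 2.97 CPM with palmitate and C3a, 2.33, 2.78 and 2.42 CPM with palmitate alone, 3.79, 2.72 and 4.91 CPM with vehicle and C3a, and 4.09, 3.65 and 3.58 CPM with vehicle alone. The lowest vehicle value, in vehicle with C3a replicate 2, lay among the palmitate values. Dhx58 changed by -0.47 ± 0.14 on average (adjusted p = 0.0205, edgeR), and in neither single comparison was it called. Dhx58 lost its call in the average when palmitate with C3a replicate 1, palmitate replicate 1, vehicle with C3a replicate 3 or vehicle replicate 1 was left out (log2 -0.44 to -0.34; adjusted p 0.0503 to 0.0607). Without vehicle with C3a replicate 3, its highest library, the average was -0.34 ± 0.13 (adjusted p = 0.0607).

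Of the 5 transcription factors only Irf1 was called. Irf1 is the factor through which interferon gamma raises class I, and its gene lies on chromosome 11 from 53770014 to 53778374. Irf1 had 33.1, 30.9 and 34.3 CPM with palmitate and C3a, 34.8, 30.8 and 32.4 CPM with palmitate alone, 42.2, 37.99 and 42.6 CPM with vehicle and C3a, and 47.4, 37.2 and 38.4 CPM with vehicle alone. All 6 palmitate values were at or below 34.8 CPM and all 6 vehicle values at or above 37.2 CPM. Irf1 fell by 0.32 ± 0.05 on the log2 scale on average (adjusted p = 0.000418) and by 0.32 in each single comparison (adjusted p = 0.00700 with C3a and adjusted p = 0.00738 without; edgeR). Its main transcript Irf1-202, 73.8% of the counts of the gene, also fell (-0.46, adjusted p = 0.0130 over all transcripts tested), beside 10.4% of all transcripts called in the average comparison.

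Irf7, the factor that amplifies type I interferon, had 2.68 to 4.44 CPM (median 3.00) with palmitate and 2.86 to 8.34 CPM (median 4.80) with vehicle, and was not called (-0.60 ± 0.23; adjusted p = 0.0591, edgeR). Irf9 (-0.12 ± 0.06) and Stat2 (-0.14 ± 0.06), the partners in the complex that binds the response element, were not called either. Irf3 had 1.81, 2.24 and 0.892 CPM with palmitate and C3a, 4.54, 0.702 and 2.94 CPM with palmitate alone, 7.49, 3.14 and 2.32 CPM with vehicle and C3a, and 4.96, 2.06 and 1.08 CPM with vehicle alone. Irf3, the factor that the RNA sensors activate, varied more within groups than between them (average -0.55 ± 0.38; adjusted p = 0.290, edgeR). The gene of Irf3 overlaps Bcl2l12 on the other strand.

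**Figure D2:**
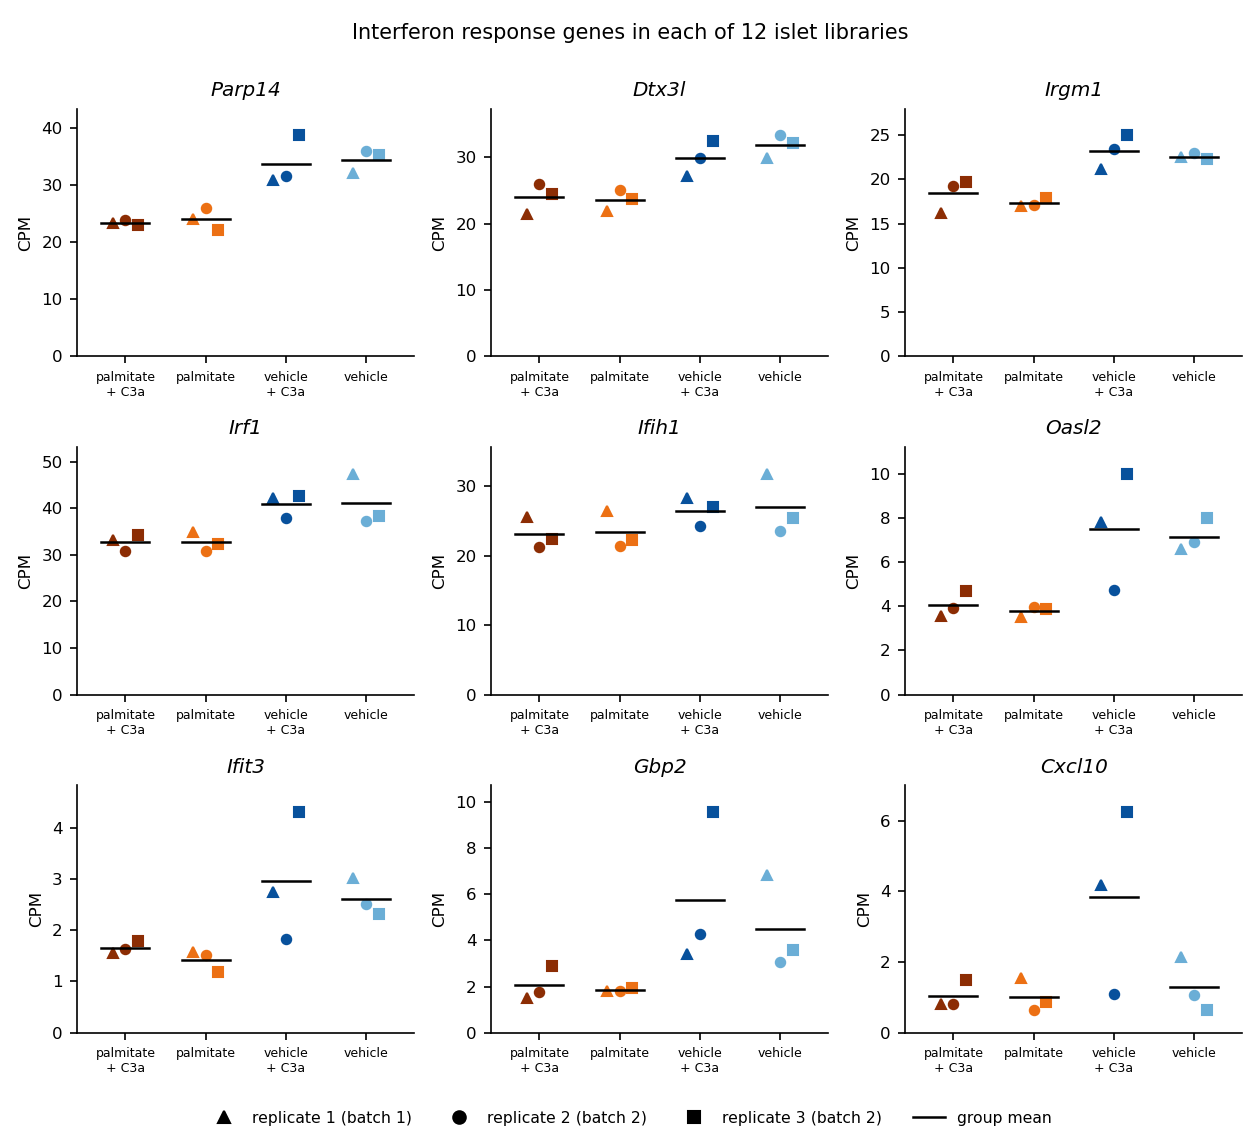
CPM of 9 interferon response genes in the 12 libraries, by group, with the group means as bars and the replicate number as the shape of the point. Parp14, Dtx3l, Irgm1, Irf1, Oasl2, Ifit3 and Gbp2 show no palmitate point above the lowest vehicle point. Vehicle with C3a replicate 3 is the highest point for Parp14, Irgm1, Oasl2, Ifit3, Gbp2 and Cxcl10.

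Of 11 antiviral effectors, Oasl2, Ifit3, Rsad2 and Adar fell on average. Oasl2 belongs to the family of oligoadenylate synthetases, and Ifit3 to a cluster of tetratricopeptide proteins on chromosome 19. Oasl2 had 3.54, 3.94 and 4.68 CPM with palmitate and C3a, 3.52, 3.97 and 3.89 CPM with palmitate alone, 7.81, 4.74 and 10.02 CPM with vehicle and C3a, and 6.58, 6.92 and 7.999 CPM with vehicle alone. The vehicle libraries were higher than all palmitate libraries, by a narrow margin for vehicle with C3a replicate 2. Oasl2 fell by 0.90 ± 0.16 on the log2 scale on average (adjusted p = 0.000856), by 0.89 ± 0.22 with C3a (adjusted p = 0.0126) and by 0.92 ± 0.23 without (adjusted p = 0.0117; edgeR). Oasl2 lost its call with C3a when palmitate with C3a replicate 1, vehicle with C3a replicate 1 or vehicle with C3a replicate 3 was left out (log2 -0.83 to -0.61; adjusted p 0.0560 to 0.0669). Oasl2 lost its call without C3a when palmitate replicate 1 or vehicle replicate 3 was left out (log2 -0.90 to -0.84; adjusted p 0.0506 to 0.0511). Its protein-coding transcript Oasl2-201, 53.7% of the counts, fell by 1.15 (adjusted p = 0.0274), and the nonsense-mediated decay transcript Oasl2-205, 41.5% of the counts, had -0.63 (adjusted p = 0.103).

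Ifit3 had 1.55, 1.64 and 1.78 CPM with palmitate and C3a, 1.58, 1.51 and 1.19 CPM with palmitate alone, 2.75, 1.84 and 4.31 CPM with vehicle and C3a, and 3.02, 2.51 and 2.32 CPM with vehicle alone. No palmitate library exceeded 1.78 CPM, and the vehicle libraries began at 1.84 CPM. Ifit3 fell by 0.86 ± 0.20 on the log2 scale on average (adjusted p = 0.00456), and both single comparisons were called (-0.84 ± 0.28 with C3a, adjusted p = 0.0428, and -0.87 ± 0.28 without, adjusted p = 0.0412; edgeR). Ifit3 lost its call with C3a when any 1 of 10 libraries was left out (log2 -0.93 to -0.39; adjusted p 0.0521 to 0.259), with the highest p without vehicle with C3a replicate 3. Ifit3 lost its call without C3a when any 1 of 9 libraries was left out (log2 -0.94 to -0.75; adjusted p 0.05001 to 0.146), with the highest p without vehicle replicate 1. The neighbours of Ifit3 were not called: Ifit1 had -0.48 ± 0.19 (adjusted p = 0.0704) and Ifit2 0.00 ± 0.17 (adjusted p = 0.989; edgeR). Ifit2 had 1.03, 1.52 and 1.25 CPM with palmitate and C3a, 1.42, 1.16 and 1.54 CPM with palmitate alone, 1.67, 1.116 and 1.17 CPM with vehicle and C3a, and 1.45, 1.204 and 1.403 CPM with vehicle alone. The Ifit2 values of all 4 groups overlapped.

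Rsad2 had 7.86, 5.69 and 5.05 CPM with palmitate and C3a, 6.797, 6.34 and 5.17 CPM with palmitate alone, 8.17, 5.42 and 9.33 CPM with vehicle and C3a, and 8.98, 7.86 and 7.602 CPM with vehicle alone. Rsad2 codes for viperin, an antiviral enzyme, and its lowest vehicle value was vehicle with C3a replicate 2. It changed by -0.37 ± 0.13 on average (adjusted p = 0.0338, edgeR). Rsad2 lost its call in the average when any 1 of 8 libraries was left out (log2 -0.39 to -0.24; adjusted p 0.0556 to 0.0803), with the highest p without palmitate replicate 3. Adar had 74.6, 67.3 and 65.6 CPM with palmitate and C3a, 75.5, 73.95 and 64.1 CPM with palmitate alone, 79.3, 71.98 and 69.8 CPM with vehicle and C3a, and 84.3, 74.1 and 74.5 CPM with vehicle alone. Adar edits adenosine in double-stranded RNA, and it was the effector with the highest level per length (21.4 TPM). The change of Adar was the smallest of those called (-0.11 ± 0.04; adjusted p = 0.0312, edgeR), and no transcript of it was called. Adar lost its call in the average when any 1 of 9 libraries was left out (log2 -0.11 to -0.08; adjusted p 0.0523 to 0.0742), with the highest p without palmitate replicate 1. Of the other effectors, the RNA-activated kinase Eif2ak2 (-0.11 ± 0.08), the tether Bst2 (-0.11 ± 0.15), Isg15 (-0.65 ± 0.34), Oas1a (0.01 ± 0.16) and the nucleotide hydrolase Samhd1 (0.01 ± 0.04) were not called.

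The interferon-induced GTPases, which act on membranes that enclose pathogens, held the largest called change. Gbp2 had 1.51, 1.78 and 2.87 CPM with palmitate and C3a, 1.82, 1.81 and 1.96 CPM with palmitate alone, 3.43, 4.28 and 9.57 CPM with vehicle and C3a, and 6.83, 3.06 and 3.58 CPM with vehicle alone. Gbp2, a guanylate-binding protein, stayed at or below 2.87 CPM with palmitate and at or above 3.06 CPM with vehicle. It changed by -1.36 ± 0.32 on average (adjusted p = 0.00671), by -1.47 ± 0.44 with C3a (adjusted p = 0.0344) and by -1.26 ± 0.46 without (adjusted p = 0.0732; edgeR). Gbp2 lost its call with C3a when any 1 of 6 libraries was left out (log2 -1.48 to -0.87; adjusted p 0.0537 to 0.123), with the highest p without palmitate with C3a replicate 1. With the replicate block Gbp2 was called without C3a too (adjusted p = 0.0482). With no filter on low counts Gbp2 was not called with C3a.

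Gbp3 had 0.775, 0.661 and 1.19 CPM with palmitate and C3a, 0.8299, 0.783 and 1.07 CPM with palmitate alone, 1.76, 1.14 and 2.34 CPM with vehicle and C3a, and 2.27, 1.45 and 1.17 CPM with vehicle alone. Gbp3 lies beside Gbp2 on chromosome 3, and its ranges overlapped narrowly (palmitate up to 1.19 CPM, vehicle from 1.14 CPM). The average change of Gbp3 was -0.89 ± 0.25 (adjusted p = 0.0130, edgeR), and with the replicate block it was called with C3a (adjusted p = 0.0344 against 0.0604). In batch 2 only Gbp3 was not called in the average. Gbp7 had 9.45, 6.89 and 6.62 CPM with palmitate and C3a, 8.299, 7.23 and 6.201 CPM with palmitate alone, 9.57, 8.58 and 10.02 CPM with vehicle and C3a, and 9.596, 9.06 and 8.96 CPM with vehicle alone. Palmitate with C3a replicate 1 was within the vehicle range, and the other palmitate libraries were below it. Gbp7 fell by 0.34 ± 0.08 on the log2 scale on average (adjusted p = 0.00545) and was called without C3a (-0.36 ± 0.11; adjusted p = 0.0381; edgeR). Gbp7 lost its call without C3a when any 1 of 5 libraries was left out (log2 -0.38 to -0.28; adjusted p 0.0523 to 0.148), with the highest p without palmitate replicate 3.

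Irgm1, an immunity-related GTPase that controls the others, lies on chromosome 11 from 48861968 to 48871683. Irgm1 had 16.2, 19.3 and 19.7 CPM with palmitate and C3a, 16.99, 17.1 and 17.9 CPM with palmitate alone, 21.2, 23.4 and 24.96 CPM with vehicle and C3a, and 22.5, 22.9 and 22.3 CPM with vehicle alone. The highest palmitate library was at 19.7 CPM and the lowest vehicle library at 21.2 CPM. Irgm1 fell by 0.36 ± 0.05 on the log2 scale on average (adjusted p = 8.10e-05), by 0.33 with C3a (adjusted p = 0.00269) and by 0.38 without (adjusted p = 0.00136; edgeR). Igtp (-0.21 ± 0.09; adjusted p = 0.0870), which overlaps Irgm2 on the same strand, was not called. Iigp1 had 0.148, 0.0575 and 0.793 CPM with palmitate and C3a, 0.237, 0.108 and 0.0466 CPM with palmitate alone, 0.406, 0.0698 and 0.265 CPM with vehicle and C3a, and 0.662, 0.163 and 0.187 CPM with vehicle alone. Iigp1 was too low to read a direction from (average -0.25 ± 0.67; adjusted p = 0.800, edgeR), and palmitate with C3a replicate 3 was its highest library.

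Of the 7 class I genes, H2-D1 rose, Tapbp and Tap1 fell, and H2-K1, B2m, Tap2 and Nlrc5 were not called on average. H2-D1 had 394, 446 and 424 CPM with palmitate and C3a, 406, 422 and 429.9 CPM with palmitate alone, 347, 362 and 417 CPM with vehicle and C3a, and 378, 400.2 and 391 CPM with vehicle alone. The palmitate values lay high in the joint range, with vehicle with C3a replicate 3 and vehicle replicate 2 among them. H2-D1 rose by 0.14 ± 0.04 on the log2 scale on average (adjusted p = 0.0125), with 0.17 ± 0.05 with C3a (adjusted p = 0.0373) and 0.11 ± 0.05 without (adjusted p = 0.173; edgeR). With no batch term (adjusted p = 0.0919) and in batch 2 only (adjusted p = 0.0917) H2-D1 was not called in the average. H2-D1 lost its call with C3a when any 1 of 8 libraries was left out (log2 0.12 to 0.18; adjusted p 0.0541 to 0.158), with the highest p without vehicle with C3a replicate 2. H2-K1 had 529.8, 541 and 502 CPM with palmitate and C3a, 518, 515 and 538 CPM with palmitate alone, 472, 466 and 526 CPM with vehicle and C3a, and 516, 518 and 484 CPM with vehicle alone. H2-K1 was not called (0.08 ± 0.04, 95% interval -0.01 to 0.16; adjusted p = 0.145, edgeR), and its groups overlapped.

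B2m had 95.6 to 120 CPM (median 106) with palmitate and 89.1 to 129 CPM (median 97.2) with vehicle, and was not called (0.08 ± 0.08, 95% interval -0.11 to 0.27). Reads of class I heavy chains can be split among near-identical copies, so the values of H2-K1 and H2-D1 are uncertain to that extent. Nlrc5 had 2.25, 2.097 and 1.62 CPM with palmitate and C3a, 1.62, 1.75 and 1.096 CPM with palmitate alone, 0.632, 1.56 and 1.42 CPM with vehicle and C3a, and 1.45, 1.51 and 1.78 CPM with vehicle alone. Nlrc5, the transactivator of class I genes, was near the lowest level of the set and was not called (0.31 ± 0.22; adjusted p = 0.290, edgeR).

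Tapbp, on chromosome 17 from 33915899 to 33929292, was the loading gene with the clearest change. Tapbp had 153, 168 and 184 CPM with palmitate and C3a, 162, 162 and 168 CPM with palmitate alone, 186, 198 and 232 CPM with vehicle and C3a, and 205, 195 and 197 CPM with vehicle alone. All palmitate libraries lay below all vehicle libraries, the nearest being palmitate with C3a replicate 3. Tapbp fell by 0.29 ± 0.05 on the log2 scale on average (adjusted p = 0.000882), by 0.29 with C3a (adjusted p = 0.0117) and by 0.28 without (adjusted p = 0.0139; edgeR). Tapbp lost its call with C3a when palmitate with C3a replicate 1 was left out (log2 -0.25; adjusted p = 0.0580). Tapbp lost its call without C3a when vehicle replicate 1 was left out (log2 -0.21; adjusted p = 0.0853). Zbtb22 overlaps Tapbp on the same strand.

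Tap1 had 13.6, 10.7 and 11.8 CPM with palmitate and C3a, 13.1, 11.3 and 10.98 CPM with palmitate alone, 13.9, 11.8 and 12.4 CPM with vehicle and C3a, and 15.3, 12.5 and 12.6 CPM with vehicle alone. Tap1, a subunit of the peptide transporter, was highest in replicate 1 of each group, and its change was small (-0.14 ± 0.05; adjusted p = 0.0313, edgeR). Tap1 lost its call in the average when any 1 of 8 libraries was left out (log2 -0.14 to -0.12; adjusted p 0.0549 to 0.0803), with the highest p without vehicle with C3a replicate 3. With the replicate block Tap1 was called without C3a (adjusted p = 0.0449 against 0.0506). In the average Tap1 kept its call under only 6 of 18 alternatives. The call also ended with no batch term, the DESeq2 Wald test, no filter on low counts and batch 2 only. Tap2, the other subunit, was not called (-0.05 ± 0.05; adjusted p = 0.483, edgeR), and 75.9% of its counts were assigned to Tap2-202, a retained-intron transcript. Tap2 was the 1 member whose leading transcript is not protein coding.

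**Figure D3:**
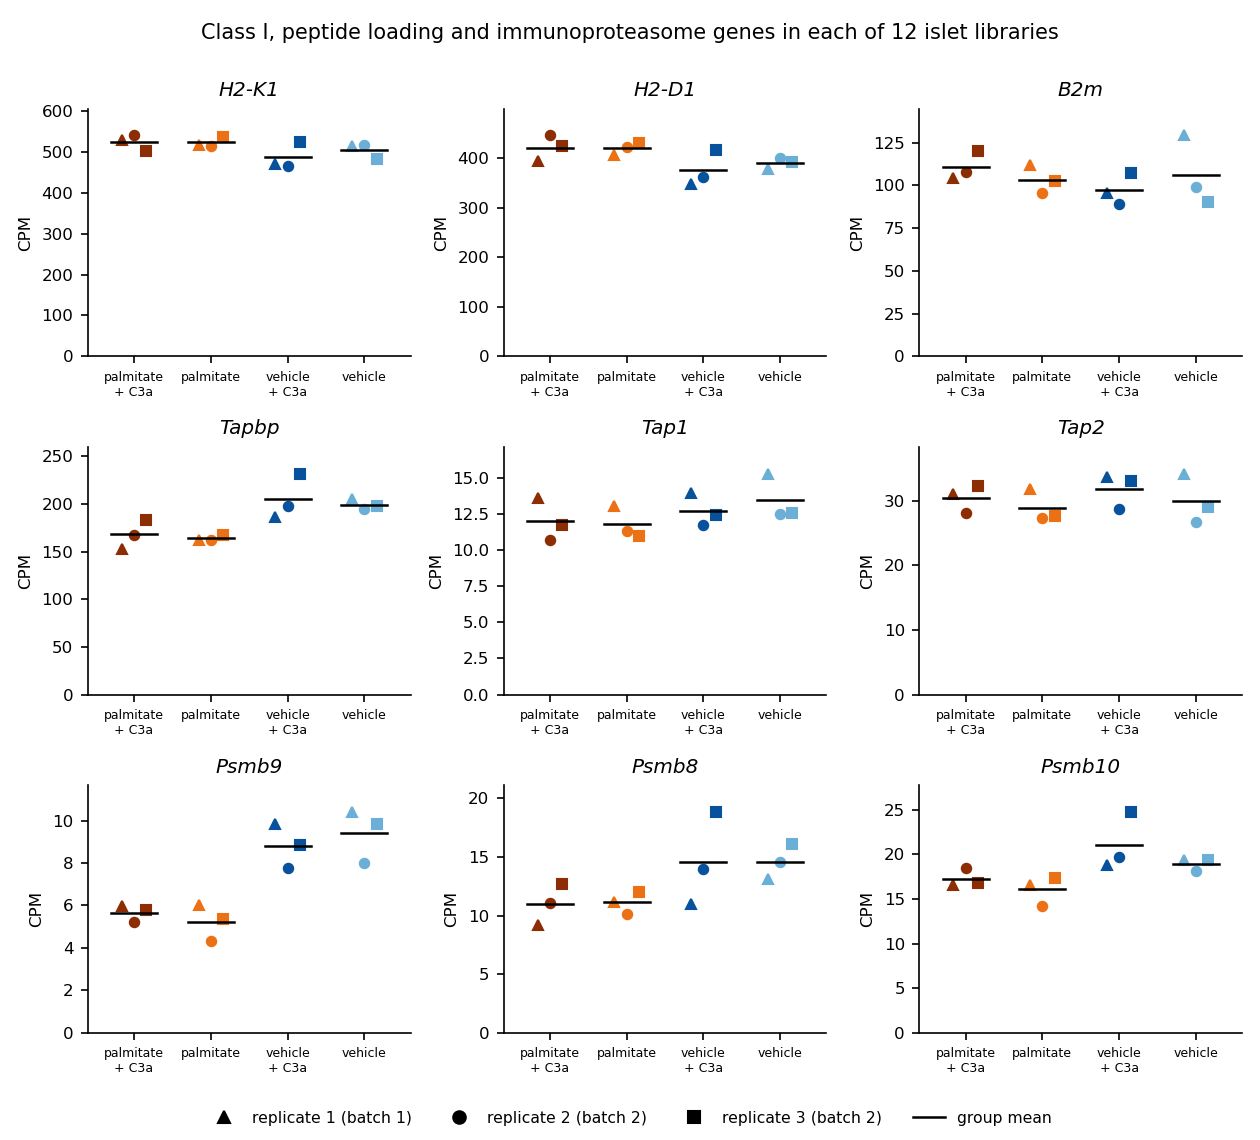
CPM of 6 class I and peptide loading members and of 3 immunoproteasome genes that are not members, in the 12 libraries, with group means as bars and the replicate number as the shape of the point. H2-K1, H2-D1 and B2m overlap between palmitate and vehicle, while Tapbp and Psmb9 are lower in all 6 palmitate libraries.

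The last group holds interferon-induced genes of other kinds. Ifi35 had 15.1, 12.3 and 15.1 CPM with palmitate and C3a, 12.6, 12.5 and 12.9 CPM with palmitate alone, 17.6, 14.9 and 16.98 CPM with vehicle and C3a, and 16.1, 15.9 and 14.2 CPM with vehicle alone. Ifi35, an interferon-induced leucine zipper protein, had palmitate with C3a replicates 1 and 3 within the vehicle range. It fell by 0.25 ± 0.06 on the log2 scale on average (adjusted p = 0.00760) and was called without C3a (-0.28 ± 0.09; adjusted p = 0.0376; edgeR). Ifi35 lost its call without C3a when any 1 of 8 libraries was left out (log2 -0.31 to -0.23; adjusted p 0.0514 to 0.162), with the highest p without palmitate replicate 1. That call also ended with no batch term, the DESeq2 Wald test, no filter on low counts and batch 2 only. In batch 2 only Ifi35 was not called in the average either. Ifi27 had 25.4, 22.3 and 25.8 CPM with palmitate and C3a, 30.0, 21.7 and 25.2 CPM with palmitate alone, 23.8, 18.4 and 26.9 CPM with vehicle and C3a, and 28.5, 19.8 and 22.8 CPM with vehicle alone. Ifi27, a mitochondrial protein and the member of this group with the highest level per length (41.7 TPM), was not called (0.10 ± 0.10; adjusted p = 0.462, edgeR). Cd274, which codes for the checkpoint ligand PD-L1, was not called (0.06 ± 0.09; adjusted p = 0.627), nor was the apoptosis-linked Xaf1 (-0.41 ± 0.19; adjusted p = 0.106; edgeR), which with the replicate block was called without C3a (adjusted p = 0.0462 against 0.0627).

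Cxcl10 had 0.812, 0.804 and 1.51 CPM with palmitate and C3a, 1.54, 0.648 and 0.863 CPM with palmitate alone, 4.197, 1.09 and 6.26 CPM with vehicle and C3a, and 2.15, 1.06 and 0.631 CPM with vehicle alone. Cxcl10, a chemokine that draws T cells, was high in vehicle with C3a replicates 1 and 3 and at or below 2.15 CPM in the other libraries. It was not called on average (-1.05 ± 0.44; adjusted p = 0.0881) or with C3a (-1.81 ± 0.61; adjusted p = 0.0543; edgeR), while the replicate block called it with C3a (adjusted p = 0.0449). Without vehicle with C3a replicate 3 the value with C3a was -0.83 ± 0.52 (adjusted p = 0.304), and without replicate 2 it was -2.26 ± 0.48 (adjusted p = 0.0105).

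Single libraries stood out in the members. Vehicle with C3a replicate 3 was the highest of its group for 27 of 42 members and for 31.3% of all genes tested, and replicate 2 of that group was the lowest for 29 members and for 29.0% of all genes. Palmitate replicate 1 was the highest of its group for 22 members (39.0% of all genes), and vehicle replicate 1 for 26 (40.4% of all genes). The median deviation of the 35 members outside class I from their mean over the libraries was 0.26 in vehicle with C3a replicate 3 and -0.03 in replicate 2 (log2 of CPM + 0.5). Without vehicle with C3a replicate 3, 5 members (11.9%) were lower with C3a and 1 higher, beside 10.4% of 16067 genes lower and 11.5% higher, so the members' share was near that of all genes. In the average 16 members (38.1%) were then lower and 2 higher, beside 17.4% of genes lower and 18.7% higher. Without palmitate with C3a replicate 1, 5 members were lower with C3a and 0 higher, beside 9.9% of 16118 genes lower and 10.2% higher. Without vehicle with C3a replicate 3 the values with C3a were -0.39 ± 0.22 for Ifit3, -0.61 ± 0.21 for Oasl2 and -0.87 ± 0.36 for Gbp2, none called, against -0.42 ± 0.07 for Parp14, -0.28 ± 0.06 for Dtx3l and -0.30 ± 0.07 for Irgm1, all called. In the average Ifit3, Oasl2 and Gbp2 were called without it too.

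**Figure D4:**
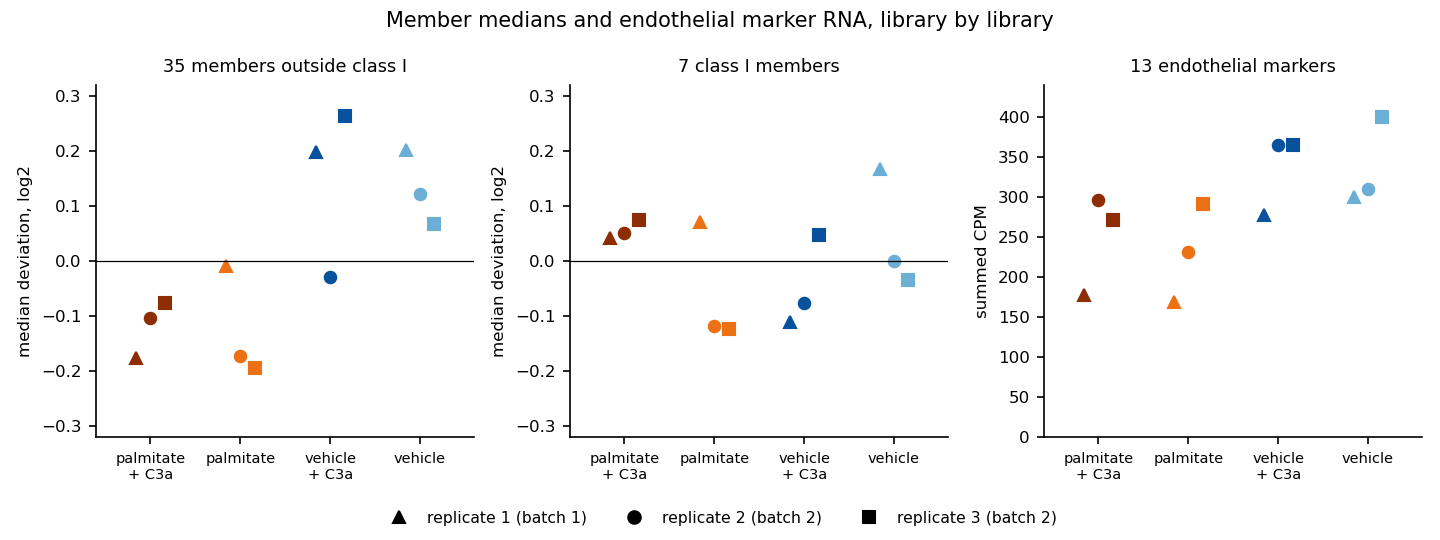
Median deviation of 35 members outside class I (left) and of 7 class I members (middle) from each gene's mean over the 12 libraries, in log2 of CPM + 0.5, and the summed CPM of 13 endothelial markers (right), library by library. The members outside class I lie below 0 in all 6 palmitate libraries and above 0 in 5 of the 6 vehicle libraries, and the endothelial sum is lower in most palmitate libraries.

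The called members had the same direction in both sequencing batches. The calls came from these same libraries, so this is no separate support. Batch 1, which holds 1 library per group and was not tested on its own, had 36 members with a lower mean with palmitate than with vehicle. Batch 2 had 33, and the shares of all genes lower in each batch were not computed. Each of the 20 members called lower was lower in both batches. Parp14 differed by -0.40 in batch 1 and -0.56 in batch 2, Irgm1 by -0.38 and -0.33, Oasl2 by -0.93 and -0.74, and Gbp7 by -0.11 and -0.42 (palmitate minus vehicle, log2 of CPM + 0.5). Fitted on batch 2 alone, the average comparison called 11 members (26.2%) lower and 0 higher, beside 13.6% of 15552 genes lower and 14.8% higher.

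Other genes of the pathway were read from lists written by name, and 2 of the lists share the 5 proteasome genes. Of 66 other interferon-stimulated genes tested, 19 were lower (28.8%) and 7 higher (10.6%) on average (median -0.16), beside 19.4% and 20.3% of all genes, with Cmpk2 at -0.89 ± 0.08, Trim12c at -0.65 ± 0.07, Psmb9 at -0.74 ± 0.08 and Parp12 at -0.25 ± 0.04 as the 4 of smallest p. Cmpk2, a mitochondrial nucleotide kinase, had 15.1 to 21.8 CPM with palmitate and 30.6 to 35.7 CPM with vehicle. With C3a 10 of the 66 were lower (15.2%) and 4 higher (6.06%), and without C3a 13 were lower (19.7%) and 4 higher (6.06%). Of all genes 13.1% were lower and 13.8% higher with C3a, and 12% lower and 13.4% higher without. The share lower with C3a was thus near that of all genes. Psmb9, an immunoproteasome subunit whose gene overlaps Tap1 on the other strand, had 4.32 to 6.01 CPM with palmitate and 7.79 to 10.4 CPM with vehicle.

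Of 26 other class I and assembly genes, 6 were lower and 6 higher on average (median -0.03), 23.1% each way, which is near the 19.4% lower and 20.3% higher of all genes. Psmb9 and Rfx5 (-0.22 ± 0.05), a factor of MHC promoters, were lower, while H2-Ke6 (0.27 ± 0.04), a dehydrogenase gene that lies among the MHC genes, and the chaperone Calr (0.20 ± 0.03) were higher. The immunoproteasome subunits Psmb8 (-0.40 ± 0.10) and Psmb10 (-0.27 ± 0.07) fell as well. These 2 were named after their values were seen, so they do not stand for the list. With C3a 3 of the 26 were lower (11.5%) and 2 higher (7.69%), and without C3a 2 were lower and 2 higher (7.69% each). These shares were not above those of all genes (13.1% lower and 13.8% higher with C3a, 12% and 13.4% without). Of 23 genes of nucleic acid sensing, 6 were lower (26.1%) and 1 higher (4.35%) on average. In each single comparison 4 were lower (17.4%) and 0 higher, beside the 13.1% and 12% of all genes lower. On average the list was led by Irf2 (-0.31 ± 0.04), a factor that binds the same elements as Irf1, and Rnf135 (-0.39 ± 0.07), a ubiquitin ligase for RIG-I. The adaptor Traf3 (-0.24 ± 0.05) and the helicase Znfx1 (-0.19 ± 0.05) followed.

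Of 16 ligands, receptors, kinases and STATs, 4 were lower (25%) and 2 higher (12.5%) on average, near the shares of all genes in so short a list. With C3a 3 were lower (18.8%) and 2 higher (12.5%), and without C3a 2 were lower and 2 higher (12.5% each), also near those shares. The kinases Jak1 (-0.33 ± 0.04) and Tyk2 (-0.18 ± 0.04) fell, while Ifnar2 (0.23 ± 0.03), a chain of the type I receptor, and the phosphatase Ptpn2 (0.36 ± 0.05), which removes phosphate from JAKs and STATs, rose. Jak1 had 207 to 246 CPM with palmitate and 270 to 309 CPM with vehicle, with no overlap. Of 8 class II genes tested, H2-DMa fell (-0.61 ± 0.15) and Cd40 rose (0.44 ± 0.11), with 0 called with C3a and 1 in each direction (12.5% each) without. No gene of these lists was called for C3a or for the interaction. The fold changes of list genes are log2 averages ± SE, all with an adjusted p under 0.05 in edgeR.

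C3a gave no detected change in any member. With palmitate, C3a against none called 0 of 42 members and 0% of all genes with edgeR, and with vehicle also 0 and 0%. The interaction, the palmitate effect with C3a minus that without, called 0 members and 0% of all genes. At an unadjusted p under 0.05 there were 0 members with palmitate, 1 with vehicle (Cxcl10, 1.70 ± 0.61) and 0 for the interaction, and 430, 347 and 251 of all genes. DESeq2 called 0 members in each, and 1, 2 and 0 of all genes. Cxcl10 with vehicle had its own spread of 1.09 to 6.26 CPM over the 3 C3a libraries, and without vehicle with C3a replicate 3 its change was 0.79 ± 0.50.

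The intervals say how large a C3a effect these data could hide. The members' median half-width of the 95% interval was 0.26 with palmitate, 0.26 with vehicle and 0.36 for the interaction (log2). The whole interval lay within -0.5 to 0.5 for 26, 27 and 24 members, and within -1 to 1 for 34, 36 and 33. For Parp14 the C3a effect was -0.04 ± 0.09 with palmitate (95% interval -0.23 to 0.15) and -0.03 ± 0.08 with vehicle (-0.21 to 0.15). For H2-K1 it was 0.00 ± 0.06 (-0.12 to 0.12) and -0.05 ± 0.06 (-0.17 to 0.07). For Isg15 the intervals ran from -1.03 to 1.15 with palmitate and from -0.65 to 1.39 with vehicle, and Iigp1 reached 3.87.

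**Figure D5:**
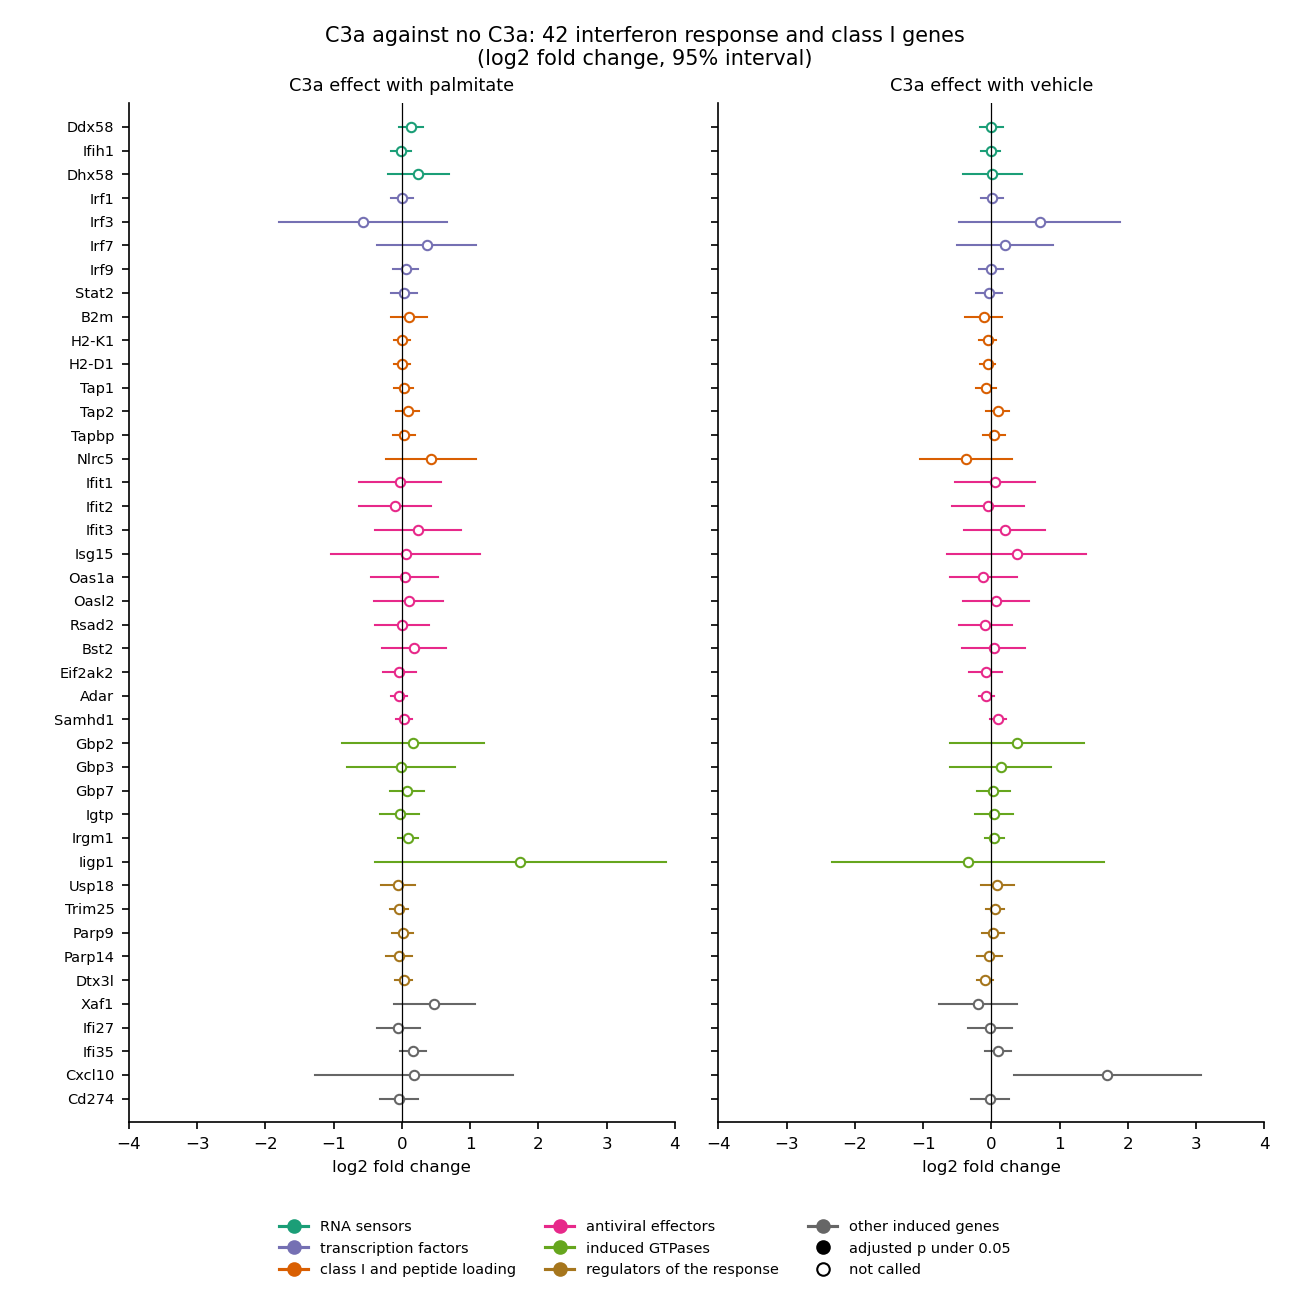
Log2 fold changes of the 42 members with C3a against without (points) with 95% intervals (lines), with palmitate (left) and with vehicle (right). Colours are the role groups. No point is filled, since no member had an adjusted p under 0.05, and the points of most members lie within 0.5 of 0.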

How the data were processed

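The authors deposited 1 table of estimated counts per transcript for the 12 libraries, made from poly(A) RNA with a stranded kit per the labels' protocols. The submitters' processing notes name kallisto, DESeq2 and GRCm38. The transcriptome release, the settings and strand use were not given in the sources used here. Of 71524 transcripts, 69942 had an identifier found in GENCODE M21 and were added up into 22141 genes, and the other 1582 (0.581 to 0.677% of the counts of a library) entered no gene. The estimated counts were rounded to whole numbers.

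Genes were tested with edgeR 4.0.16 (limma 3.58.1, R 4.3.3), after filterByExpr and TMM scaling (factors 0.967 to 1.04), by the robust quasi-likelihood test with group and sequencing batch as terms in all 12 libraries (7 residual degrees of freedom, biological coefficient of variation 11.2%). P-values were adjusted by Benjamini-Hochberg over 15794 genes within each of 6 comparisons. Standard errors are the log2 fold change divided by the root of F. The script was tested on simulated data. DESeq2 1.42.0, other scalings, no filter, no batch term, batch 2 alone, only the compared groups and each library left out were alternatives. Levels and tables were computed with Python 3.11.15, pandas 2.3.3 and numpy 2.4.6.

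No 2 libraries agreed within sampling noise (lowest chi-square per degree of freedom 7.72 over 66 pairs). The groups share replicate numbers in the labels. The deviations from group means correlated in the 18 pairs of same-numbered libraries (at least 0.395, mean 0.575). Sequencing batch was not removed from these deviations, and differently numbered libraries were not compared, so the correlations do not establish a pairing. The main fit held group and sequencing batch, and the replicate number entered only the replicate block. Within batch 2, where 2 libraries per group give 6 distinct correlations, they ran only from 0.0799 to 0.185.

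The members, lists and markers were chosen by name with earlier results of these data known. Values in every library are given for members called in at least 1 comparison and for the highest and lowest member of each role by level, and up to 4 genes of smallest p are named from each list. Psmb8 and Psmb10 were added after their values were seen.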

Additional observations from a re-analysis of the deposited data

Results flagged for a closer look

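Trim25, the ubiquitin ligase for RIG-I, had C3a differences of opposite sign with palmitate and with vehicle in every replicate. With palmitate, C3a minus none was -0.07, -0.04 and -0.01 in replicates 1, 2 and 3, and with vehicle it was 0.09, 0.05 and 0.01 (log2). The interaction was -0.0905 ± 0.0864 (95% interval -0.28 to 0.10) and was not called by edgeR (adjusted p = 1.00). Trim25 was picked from among the members because its differences had opposite signs, so the signs are not a separate result. In replicate 3 they were only -0.007 with palmitate and 0.007 with vehicle. How often members would show such signs by chance was not computed. The test of the difference itself did not pass the threshold.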

How the results depend on the processing

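No alternative turned the direction of a called member. Over the 3 palmitate comparisons there were 43 calls of members. Batch 2 only ended 24 of them, no batch term 21, no filter 5, the DESeq2 Wald test 3, DESeq2 size factors 1 and the replicate block 0. Only the compared groups ended 6 of those in the single comparisons. In the average palmitate comparison 9 of the 21 called members (Dtx3l, Gbp2, Gbp7, Ifit3, Irf1, Irgm1, Oasl2, Parp14 and Tapbp) kept their call under all 18 alternatives, and in both single comparisons Dtx3l, Irgm1 and Parp14 kept theirs under all 19. With no batch term the average called 4079 genes and 13 members, palmitate with C3a against vehicle with C3a 2074 genes and 5 members, and palmitate against vehicle 1841 genes and 4 members. In the single comparisons 11.9% of members were then lower with C3a and 9.52% without, and 0 higher. Of the genes 6.53% were lower and 6.6% higher with C3a, and 5.55% lower and 6.1% higher without. With batch 2 only (fewer libraries) the members called were 11, 7 and 3, the genes 4417, 2331 and 2058, and C3a with palmitate called 1 gene. In these single comparisons 16.7% of members were lower with C3a and 7.14% without, and 0 higher. Of the genes 7.41% were lower and 7.57% higher with C3a, and 5.83% lower and 7.41% higher without. With only the libraries of the groups compared 6 members (14.3%) were called with C3a, all lower, beside 10.2% of genes lower. In that setting C3a with vehicle called 2 genes. For C3a, DESeq2 called 1 gene with palmitate and 2 with vehicle, and no filter 3 with vehicle. Where a cause is not given here, the cause was not tested.

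With each library left out in turn, the members called ranged from 16 to 24 in the average, from 5 to 15 with C3a and from 6 to 15 without C3a, and genes called for C3a from 0 to 1 with palmitate and from 0 to 1 with vehicle. The count with C3a was 5 without palmitate with C3a replicate 1, 6 without palmitate replicate 1 or vehicle with C3a replicate 3, and 7 without vehicle with C3a replicate 1 or vehicle replicate 3. In these fits 11.9 to 16.7% of members were lower with C3a, beside 9.05 to 12.2% of genes. The smallest count (11.9%) stood beside 9.9% of genes, so it was near the share of all genes. The count without C3a was 6 without replicate 1 or 3 of palmitate or of vehicle, and 7 without vehicle replicate 2. There 14.3 to 16.7% of members were lower, beside 7.63 to 9.84% of genes. With the replicate block 21 members were called in the average, 14 with C3a and 14 without (6832, 4779 and 4612 genes), and 0 for C3a. The 6 members it added are named beside their values, and it changed no other call. Low counts limit Iigp1 (down to 2 counts in a library) and Isg15 (down to 6).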
